A study of Homo sapiens with 4 samples.

Results

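Matrix metalloproteinases (MMPs) and their tissue inhibitors (TIMPs) were examined after knock-down of the zinc finger transcription factor ZFX in NOMO-1 cells, an established human line from a monocytic acute myeloid leukaemia. The 10 genes are MMP2, MMP8, MMP9, MMP14, MMP17, MMP19, MMP25, TIMP1, TIMP2 and TIMP3, out of 18417 genes with a probe set of their own on the array. They were chosen by name as one family, with earlier results of these data known, among them the wide spread of MMP8 between the control arrays. Each gene is represented by its probe set with the highest mean log2 intensity over the 4 arrays, and TIMP3 alone of the 10 had more than 1 such probe set.

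The ZFX knock-down group held 2 arrays, 1 from cells with the hairpin SH3 (ZFX-SH3) and 1 from cells with the hairpin SH1 (ZFX-SH1). The control group, labelled ZFX wild type, held 2 arrays, 1 from cells with a scrambled hairpin (SCR) and 1 from cells given lentivirus that carries GFP (LEN-GFP). All 4 cultures were transduced with lentivirus at a multiplicity of infection of 1, and RNA was taken 48 h after selection. Each construct has 1 array, and the labels do not say how the cultures relate to each other, so an error between the arrays of a group holds the difference between constructs, cultures and arrays together.

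ZFX itself had an intensity of 1110.0 on ZFX-SH3 and 1122 on ZFX-SH1, against 1618 on SCR and 1602 on LEN-GFP, which placed the knock-down arrays at 69.3% of the control level (log2 difference -0.53, SE 0.10; limma adjusted p = 0.797, 2 against 2 arrays). The median intensity of the arrays lay between 184.8 and 189.8. Of 17 monocyte and NOMO-1 identity markers on the array, 16 were above the brightness limit for testing, among them ITGAM, CD68, LYZ, CD14, KIT and FLT3. CD14 had 154.0 on ZFX-SH1 to 196.9 on ZFX-SH3, and KIT had 1357 on ZFX-SH3 to 2606 on LEN-GFP. The progenitor marker CD34 was below the limit. For other cell types, summed intensities over the 4 arrays were 989 to 1056 for 10 fibroblast markers, 2085 to 2379 for 8 epithelial markers, 922 to 940 for 5 B cell markers, 4918 to 5938 for 11 T and natural killer cell markers and 1428 to 1487 for 9 erythroid and megakaryocyte markers. In these lists 4, 4, 4, 5 and 6 genes were bright enough to be tested, and the file gives no detection call. Of the 5 tested T and natural killer cell markers, 4 were lower (median -0.27), and their part in the results below was not tested.

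MMPs are zinc-dependent proteases that are made as inactive precursors and cut collagens, gelatin, other matrix proteins and cell surface molecules. Some are secreted or stored in the granules of myeloid cells, and others stay on the membrane. TIMPs bind the active site of MMPs and block them, and TIMP3 also blocks several ADAM proteases, which release membrane proteins from the cell surface. In blood cells MMPs serve the passage through basement membranes and the release of cytokines.

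MMP8, neutrophil collagenase, cuts fibrillar collagens and is stored in the specific granules of neutrophils. Its intensity was 308.1 on ZFX-SH3 and 2966 on ZFX-SH1, against 3659.9 on SCR and 1253 on LEN-GFP. ZFX-SH3 was the lowest of the 4 arrays, and ZFX-SH1 lay between the control arrays, so the groups overlapped. The difference between the groups was -1.16 on the log2 scale with an SE of 1.15 (2 against 2 arrays; 95% interval from -4.14 to 1.81), and it did not pass (limma, adjusted p = 0.860 over all genes tested). On these arrays fewer cells that express a gene and less RNA of it per cell cannot be told apart.

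The control arrays differed more on MMP8 than on any other gene tested. SCR was 2.92-fold above LEN-GFP (log2 1.55), the largest absolute difference between the controls among 12892 genes, where a difference past 1 on the log2 scale was reached by 0.0621% of genes. This spread is part of how MMP8 came to be described, and it is given with no test. Over the other 9 genes, tested or not, the median size of the difference between the controls was 0.0686, against 0.0895 for all 18417 genes. For 3 of the 10 genes, MMP8, MMP17 and MMP2, the controls differed by more than the groups did. The share of all genes for which this holds was not computed, so the count is a description only. ZFX-SH3 was below both controls, with log2 differences of -3.57 from SCR and -2.02 from LEN-GFP. ZFX-SH1 differed by -0.30 from SCR and by 1.24 from LEN-GFP, so its direction turned with the control array it was set against. Without LEN-GFP the difference between the groups was -1.94, without SCR it was -0.39, without ZFX-SH1 -2.80 and without ZFX-SH3 0.47.

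**Figure D1:**
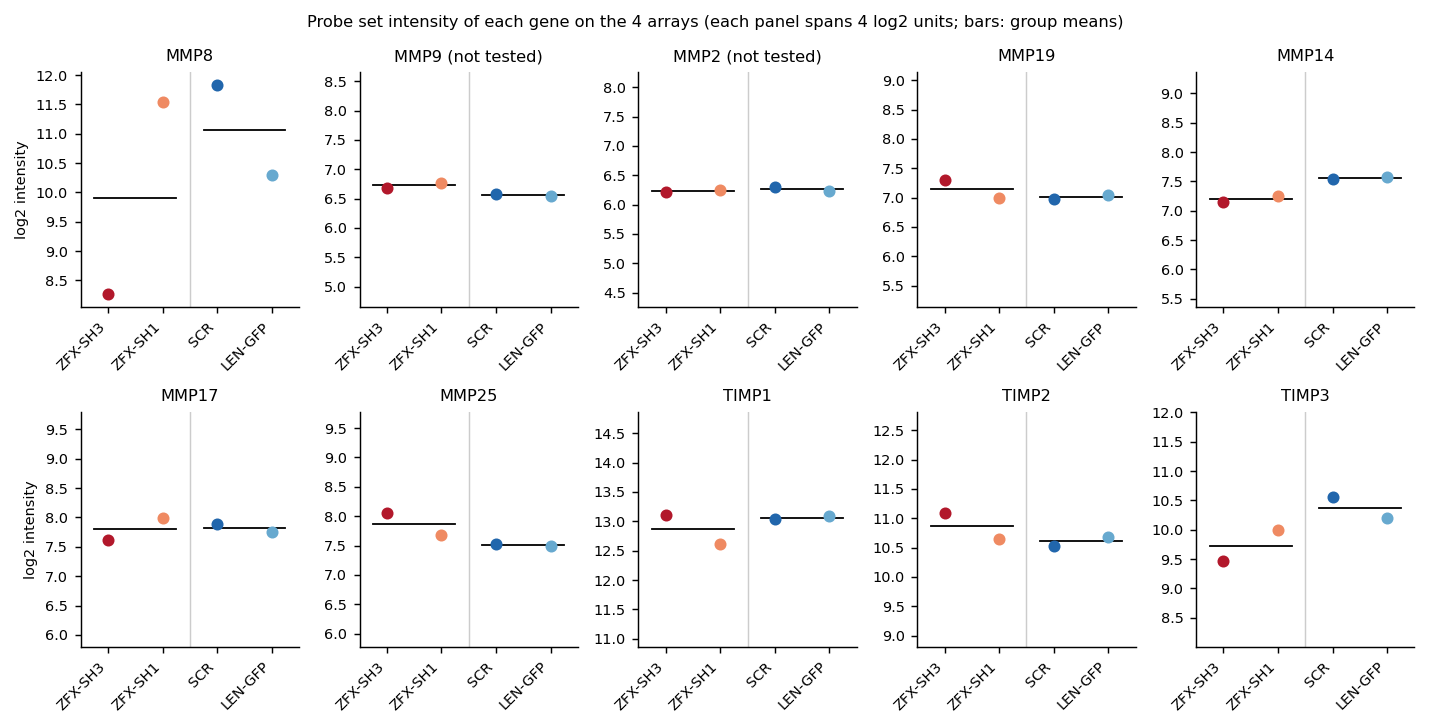
Log2 intensity of the 10 genes on the 4 arrays, with the ZFX knock-down arrays left of the control arrays, each panel spanning the same range, and bars at the group means. MMP8 spans 3.57 log2 units over the 4 arrays and TIMP3 1.09, while the other genes span 0.56 or less.

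TIMP3, the inhibitor that stays bound to the extracellular matrix, had an intensity of 705 on ZFX-SH3 and 1023 on ZFX-SH1, against 1505 on SCR and 1178 on LEN-GFP. Both knock-down arrays were below both control arrays. The difference was -0.65 (SE 0.23, 2 against 2 arrays; 95% interval from -1.24 to -0.05), with an adjusted p of 0.797 in limma over all genes tested. Its dimmer probe set gave 85.6 on ZFX-SH3 and 136.5 on ZFX-SH1, against 180.5 on SCR and 165.9 on LEN-GFP, a difference of -0.68. The 2 probe sets thus gave the same direction and the same order of the arrays. The controls differed by 0.35 on TIMP3, which lies within an intron of SYN3 on the other strand, and the SYN3 probe set gave 116.3 on ZFX-SH3 and 110.7 on ZFX-SH1, against 105.0 on SCR and 97.8 on LEN-GFP.

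The promoters of MMP8 and TIMP3 are shown because these 2 genes were the members lowest on ZFX-SH3. RefSeq promoter sequences (GRCh38.p14) were at hand for 4 of the 10 genes, MMP8, MMP14, TIMP1 and TIMP3. Each line gives the 250 bases before the annotated start, with capitals where a searched motif matched on either strand. MMP8 lies at chr11:102724955-102725204 on the minus strand and TIMP3 at chr22:32801455-32801704 on the plus strand.
MMP8: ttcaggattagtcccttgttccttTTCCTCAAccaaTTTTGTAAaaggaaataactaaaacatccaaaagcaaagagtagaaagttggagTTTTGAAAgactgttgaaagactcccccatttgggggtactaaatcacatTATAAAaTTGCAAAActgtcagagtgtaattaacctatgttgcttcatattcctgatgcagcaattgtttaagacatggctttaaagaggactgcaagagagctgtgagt
TIMP3: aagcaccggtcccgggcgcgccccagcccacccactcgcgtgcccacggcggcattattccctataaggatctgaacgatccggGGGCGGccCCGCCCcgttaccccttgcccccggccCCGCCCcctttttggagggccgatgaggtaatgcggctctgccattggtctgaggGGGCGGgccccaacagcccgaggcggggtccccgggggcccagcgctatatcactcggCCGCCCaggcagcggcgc
The motifs searched were the TATA box (TATAAA), the GC box bound by SP1-like factors (GGGCGG), the AP-1 site (TGANTCA), the consensus of C/EBP factors (TTNNGNAA) and the core of ZFX sites (AGGCCT). No matches overlapped each other in the MMP8 and TIMP3 sequences. The MMP8 promoter held 1 TATAAA, from 110 to 105 bases before the start, and 4 matches of TTNNGNAA, while the TIMP3 promoter held 5 matches of GGGCGG and none of the others. Among 35116 promoters of the same length, 10.7% held a TATAAA, 33.2% a TTNNGNAA and 42.6% a GGGCGG. The ZFX core AGGCCT, which 9.20% of promoters held, matched in TIMP1 alone of the 4, from 76 to 71 bases before the start, and TGANTCA, held by 6.57%, matched in none of them. The GC content was 36.4% for MMP8 and 72.4% for TIMP3. Nothing in these data measures binding of a factor at these sequences.

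MMP9 and MMP2, the gelatinases, cut denatured collagen and the type IV collagen of basement membranes. Both fell under the brightness limit (a mean log2 of 6.70, or an intensity of 104.2) and were not tested with the other genes. MMP9 had 102.5 on ZFX-SH3 and 109.3 on ZFX-SH1, against 96.0 on SCR and 93.3 on LEN-GFP, so both knock-down arrays were above both controls, by a mean of 0.16. MMP2 had 74.2 on ZFX-SH3 and 75.9 on ZFX-SH1, against 79.2 on SCR and 75.5 on LEN-GFP, with overlapping groups. With no brightness limit, neither passed in limma, and of all 18417 genes 0% did (adjusted p = 0.840 for MMP9 and 0.928 for MMP2, 2 against 2 arrays).

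MMP14, MMP17 and MMP25 are membrane-type MMPs. MMP14 spans the membrane and activates the MMP2 precursor together with TIMP2. It had 141.9 on ZFX-SH3 and 152.9 on ZFX-SH1, against 185.3 on SCR and 191.3 on LEN-GFP. Both knock-down arrays were below both controls, by a similar amount, and the controls differed by only -0.05. The difference of -0.35 (SE 0.09, 2 against 2 arrays; 95% interval from -0.58 to -0.12) had an unadjusted p of 0.0108 and an adjusted p of 0.797 in limma. Without any 1 of the arrays it stayed between -0.41 and -0.30.

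MMP25, a lipid-anchored MMP of leukocytes, went the other way. It had 266.0 on ZFX-SH3 and 204.9 on ZFX-SH1, against 185.1 on SCR and 180.9 on LEN-GFP, so both knock-down arrays were above both controls. The difference was 0.35 (SE 0.15, 2 against 2 arrays; limma adjusted p = 0.797), and it was 0.54 on ZFX-SH3 and 0.16 on ZFX-SH1. MMP17, the other lipid-anchored member, had 195.5 on ZFX-SH3 and 253.5 on ZFX-SH1, against 237.9 on SCR and 215.0 on LEN-GFP. Its control arrays lay between the knock-down arrays, and the difference was -0.02 (SE 0.16; 95% interval from -0.43 to 0.38; limma adjusted p = 0.984).

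MMP19, a secreted MMP that cuts basement membrane proteins, had 158.5 on ZFX-SH3 and 127.3 on ZFX-SH1, against 125.7 on SCR and 132.7 on LEN-GFP. ZFX-SH3 was the highest array and ZFX-SH1 lay between the controls. The difference was 0.14 (SE 0.13, 2 against 2 arrays; limma adjusted p = 0.853).

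TIMP1 and TIMP2 are soluble inhibitors, and TIMP1 forms a complex with the MMP9 precursor. TIMP1 had 8841 on ZFX-SH3 and 6293 on ZFX-SH1, against 8396 on SCR and 8679 on LEN-GFP. ZFX-SH1 was the lowest array, at 73.7% of the control level, and ZFX-SH3 was the highest, at 103.6%. The difference between the groups was -0.19 (SE 0.17, 2 against 2 arrays; limma adjusted p = 0.845). TIMP2 had 2179 on ZFX-SH3 and 1604 on ZFX-SH1, against 1482 on SCR and 1649 on LEN-GFP. ZFX-SH3 was the highest array and ZFX-SH1 lay between the controls, with a difference between the groups of 0.26 (SE 0.18, 2 against 2 arrays; limma adjusted p = 0.817).

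Of the 10 genes, 8 were tested, and 0 passed an adjusted p of 0.05 in limma, as did 0% of the 12892 genes. At an unadjusted p under 0.05 there were 2 of the 8, MMP14 and TIMP3, both lower, where 6.04% of all genes tested reached it in either direction (779 genes, and 686 with ordinary statistics) and 3.26% reached it with lower values. The groups did not overlap on 4 of the 10 genes, MMP9 and MMP25 higher and MMP14 and TIMP3 lower, and on 35.9% of all 18417 genes (17.4% higher and 18.6% lower). The count of genes that separated was thus close to that of the whole array. The median difference of the 8 tested was -0.11, with 3 higher and 5 lower. With 2 arrays against 2, an exact two-sided permutation test of a single gene cannot go below p = 0.333.

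**Figure D2:**
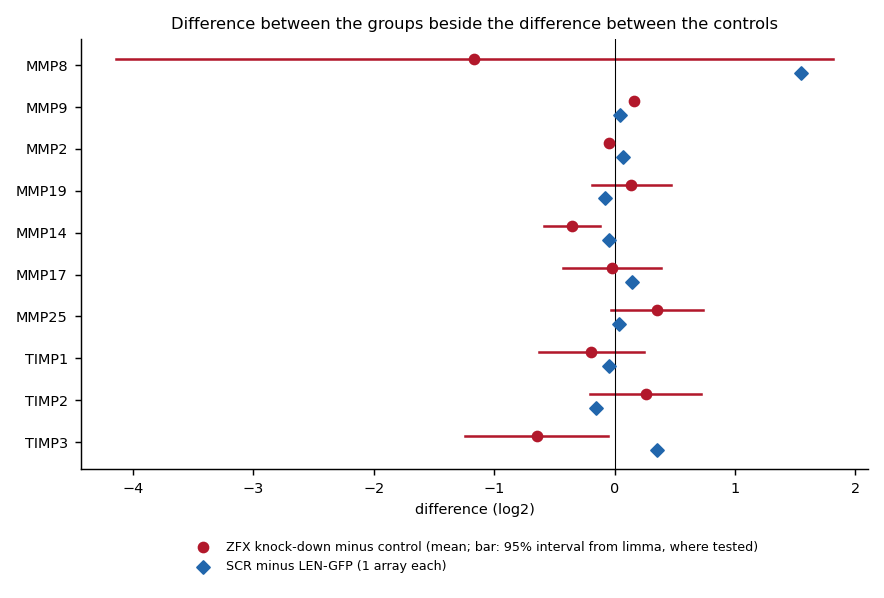
Difference between the ZFX knock-down and control groups (circles, with limma's 95% interval for the 8 genes tested) and the difference between the control arrays, SCR minus LEN-GFP (diamonds), on the log2 scale. The control difference of MMP8, 1.55, exceeds its group difference in size, and the intervals of MMP14 and TIMP3 lie below 0 before adjustment.

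Each hairpin array was also set alone against both controls. In a limma fit without ZFX-SH1, 4 of the 8 genes tested were called, against 13.2% of all genes (adjusted p under 0.05). The fit assumes that the lone array varies like the control pair, and it shares these controls with the fit of ZFX-SH1. MMP8 fell by 2.80 on the log2 scale (SE 0.47, adjusted p = 0.00625), to 14.4% of the control level, the lowest value of ZFX-SH3 against the controls among the 12892 genes. Its SE comes from the moderated spread, and the spread of its own 2 controls alone gives an SE of 1.34. TIMP3 fell by 0.92 (SE 0.16, adjusted p = 0.00760), to 52.9% of the control level, and its own controls alone give an SE of 0.31. MMP25 rose by 0.54 (SE 0.13, adjusted p = 0.0290) and TIMP2 rose by 0.48 (SE 0.12, adjusted p = 0.0319). MMP14 differed by -0.41 (SE 0.13, adjusted p = 0.0705) and did not pass.

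ZFX-SH1 alone gave 0 calls among the 8 genes in limma, against 0.419% of all genes, with 3 of the 8 lower at an unadjusted p under 0.05, as were 5.53% of all genes. The nearest was TIMP1, at -0.44 (SE 0.08, adjusted p = 0.0532). TIMP3 was at -0.38 (SE 0.16, adjusted p = 0.457) and MMP14 at -0.30 (SE 0.13, adjusted p = 0.476). MMP25 and TIMP2, called on ZFX-SH3, were at 0.16 and 0.04.

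The hairpin arrays were then compared with each other in a limma fit in which the control pair gives the spread, a comparison added after the values were seen. It called 2 of the 8 genes, against 8.49% of all genes. ZFX-SH3 was below ZFX-SH1 by -3.27 on MMP8 (SE 0.54, adjusted p = 0.00881), the largest absolute difference between the hairpins among the genes tested, and its own controls alone give an SE of 1.55. ZFX-SH3 was above ZFX-SH1 by 0.49 on TIMP1 (SE 0.09, adjusted p = 0.0123). For TIMP3, MMP25 and TIMP2 the hairpins differed by -0.54, 0.38 and 0.44, and none passed (adjusted p = 0.124, 0.186 and 0.0930). A difference from the control mean past 0.5 on the log2 scale was seen for 3 of the 10 genes on ZFX-SH3 (8.44% of all genes) and for 0 of the 10 on ZFX-SH1 (1.95% of all genes). Both hairpins were on the same side of the control mean for 6 of the 10 genes. Both are set against the same control mean, and the share of all genes was not computed. This count therefore does not show that the hairpins agree.

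**Figure D3:**
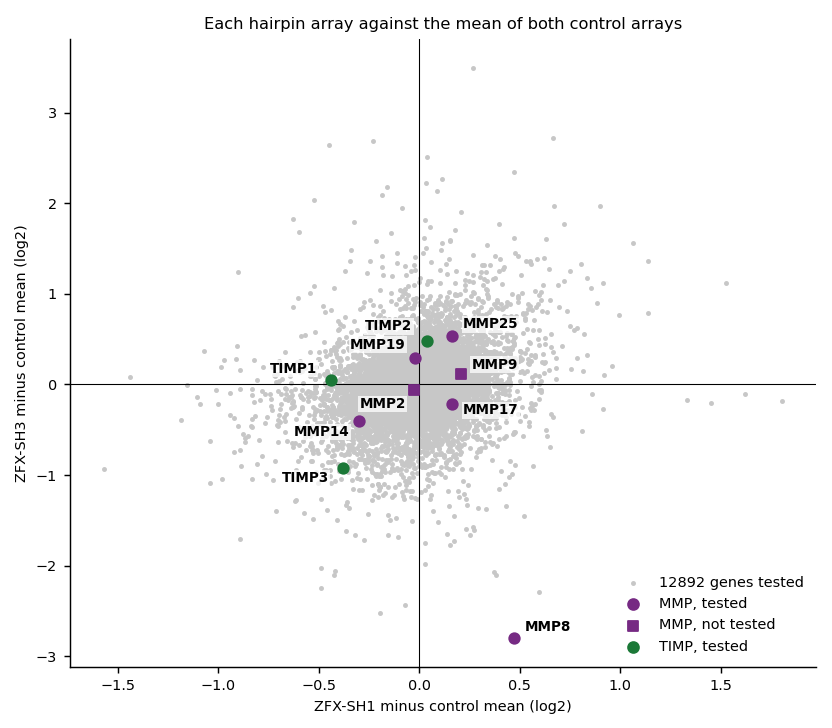
Log2 difference of ZFX-SH3 (vertical) and of ZFX-SH1 (horizontal) from the mean of both controls, for the 12892 genes tested (grey) and the 10 genes of the family, with squares for the 2 not tested. MMP8 stands at the bottom, at -2.80 on ZFX-SH3 and 0.47 on ZFX-SH1, and TIMP3 and MMP14 are lower on both arrays.

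MMP8 belongs to a cluster of MMP genes on chromosome 11, which RefSeq gives in the order MMP7, MMP20, MMP27, MMP8, MMP10, MMP1, MMP3, MMP12 and MMP13. The other 8 genes of the cluster had intensities between 36.4 and 64.6 on all 4 arrays, under the brightness limit. Their differences between the groups lay between -0.16 and 0.07, and on ZFX-SH3 between -0.22 and 0.11. Past the cluster, DCUN1D5, which follows MMP13, had 482 on ZFX-SH3 and 871 on ZFX-SH1, against 1007 on SCR and 809 on LEN-GFP (ZFX-SH3 alone: -0.90, limma adjusted p = 0.00807). Further on, PDGFD was at 0.48 on ZFX-SH3 (limma adjusted p = 0.0793), and on the other flank TMEM123, next to MMP7, was at 0.06 (limma adjusted p = 0.769).

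**Figure D4:**
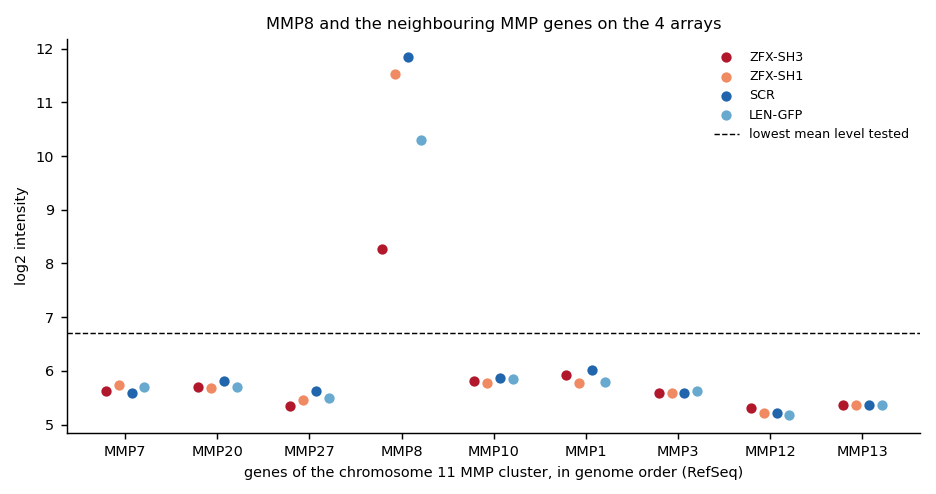
Log2 intensity of MMP8 and the 8 other MMP genes of its chromosome 11 cluster on the 4 arrays, in genome order, with a dashed line at the lowest mean level tested. MMP8 lies above the line on every array, at 8.27 on ZFX-SH3 to 11.84 on SCR, and the other 8 genes lie below it.

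The genes closest to MMP8 in pattern over the 4 arrays were taken by the Euclidean distance between log2 profiles centred on each gene's mean. They were SLC29A4 (distance 1.02), RBP4 (1.04), TARP (1.06), DEFB1 (1.14) and CHCHD7 (1.32), where the profile of MMP8 has a length of 2.81. SLC29A4, a monoamine transporter, had 255.4 on ZFX-SH3 and 1385 on ZFX-SH1, against 1255 on SCR and 911 on LEN-GFP. DEFB1, a beta-defensin, had 480.1 on ZFX-SH3 and 2682 on ZFX-SH1, against 2214 on SCR and 1909.7 on LEN-GFP. These genes were taken for this pattern, so their values are a description: -2.52 to -1.75 on ZFX-SH3 and 0.17 to 0.51 between the controls.

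The other genes of the protease system were counted from lists grouped by function, and in each list 0 genes passed between the groups in limma. Of 17 other MMPs, TIMP4 and RECK on the array, 14 were under the brightness limit, and MMP11, MMP28 and RECK were tested (median difference 0.03). MMP28 had its knock-down arrays below both controls, with a difference of -0.04. Among the 14 not tested, this also held for MMP15, MMP27, MMP10, MMP20, MMP3 and MMP13. The differences of the 14 lay between -0.29 (MMP15) and 0.10 (TIMP4). RECK, a membrane-anchored MMP inhibitor, had 777 on ZFX-SH3 and 439 on ZFX-SH1, against 468 on SCR and 544 on LEN-GFP, and was called higher on ZFX-SH3 alone.

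Of 9 tested genes of the plasminogen system and MMP precursor activation, 7 were higher and 2 lower, with a median of 0.13, beside -0.00292 for all genes tested. PLAU, the urokinase that makes plasmin, had 539 on ZFX-SH3 and 296.1 on ZFX-SH1, against 207.3 on SCR and 237.7 on LEN-GFP (difference 0.85, SE 0.30). Its receptor PLAUR had 4012 on ZFX-SH3 and 2714 on ZFX-SH1, against 2393 on SCR and 2490.0 on LEN-GFP (0.43, SE 0.20). FURIN, the protease that activates membrane-type MMPs, differed by 0.43 (SE 0.19), and the plasmin inhibitor SERPINF2 by 0.28 (SE 0.12). These 4 were named because their groups did not overlap. That held upward for 5 of the 11 genes of this list on the array, dim ones included, and for 17.4% of all 18417 genes. PLAU, PLAUR and FURIN were called higher on ZFX-SH3 alone, where 6.27% of all genes were.

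Of 12 tested cell surface partners, 6 were higher and 6 lower, with a median of -0.00297. BSG, a membrane glycoprotein that induces MMPs in neighbouring cells, differed by -0.19, and CD63, a surface receptor of TIMP1, also by -0.19. LRP1, which takes up MMP and TIMP complexes, differed by 0.16 and ITGAV by -0.09. THBS1, whose groups overlapped, was at -0.17 on ZFX-SH3 and 1.33 on ZFX-SH1 against the control mean. Of 14 tested ADAM and ADAMTS proteases, 9 were higher and 5 lower (median 0.11). ADAM17, which sheds tumour necrosis factor and is blocked by TIMP3, had 2311 on ZFX-SH3 and 1854 on ZFX-SH1, against 1692 on SCR and 1649 on LEN-GFP (0.31, SE 0.14). ADAM19 differed by 0.40, ADAM28 by 0.29 and ADAM15 by -0.33. ADAM8, whose groups overlapped, was at 0.94 on ZFX-SH3 and -0.10 on ZFX-SH1 against the control mean.

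Of 15 tested matrix substrates, 6 were higher and 9 lower (median -0.06). The laminin chains LAMC1 and LAMB1 differed by -0.66 (SE 0.33) and -0.46 (SE 0.12), both were called lower on ZFX-SH3 alone, where 6.9% of all genes were, and VCAN and HSPG2 differed by -0.14 and 0.09. Of 20 tested inducers of MMP transcription, 9 were higher and 11 lower (median -0.02). On ZFX-SH3 alone 6 of these 20 were called higher, beside 6.27% of all genes. These were IL1A (2.22 on ZFX-SH3), IL1B (1.94), TNF (0.87), JUN (0.80), FOS (0.65) and ETV4 (0.59), and the lowest of the list was ETS2 (-0.36). On ZFX-SH1 IL1A and IL1B were at 0.03 and -0.09. Among the 20 tested, the genes whose groups did not overlap were TNF, NFKB1 and JUND. The groups did not overlap on IL6 either (-0.14), which was under the brightness limit. Over all 18417 genes the share without overlap was 35.9%. Between the groups TNF differed by 0.54 (SE 0.26), NFKB1 by -0.23 and JUND by 0.07.

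MMP8, MMP9 and MMP25 are granule proteins of neutrophils, and markers of granules and of macrophages were set beside them. Of 17 specific and gelatinase granule markers on the array, 9 were tested, with 6 higher and 3 lower (median 0.02), and on ZFX-SH3 alone 2 were called higher and 1 lower, beside 6.27% and 6.9% of all genes. The defining markers LTF, CEACAM8, CRISP3 and OLFM4 were under the brightness limit. CAMP, the cathelicidin of specific granules, had 512 on ZFX-SH3 and 377.9 on ZFX-SH1, against 349.2 on SCR and 352.1 on LEN-GFP. On ZFX-SH3 CAMP and FOLR3 were the genes called higher (0.55 and 0.63), and CYBB, a subunit of the phagocyte oxidase, was the gene called lower (-0.29). The summed intensity of the 17 genes was 12661 on ZFX-SH3 and 17004 on ZFX-SH1, against 14820.3 on SCR and 13770.1 on LEN-GFP. CYBB made up most of this sum, with 7517 on ZFX-SH3 and 11584 on ZFX-SH1, against 9324 on SCR and 9046 on LEN-GFP. HP, the next brightest, was lowest on LEN-GFP (1727), with 1829 on ZFX-SH3. The sum was lowest on ZFX-SH3, as MMP8 was, and it mostly follows CYBB. On that array the 9 tested genes of the list had a median of -0.03. Its 8 genes under the brightness limit lay between -0.08 and 0.76 there, with TCN1 the highest. The part of this sum in the value of MMP8 was not tested.

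All 11 azurophil granule markers on the array were tested, and 10 were lower between the groups (median -0.27, -0.70 on ZFX-SH3 and -0.10 on ZFX-SH1). On ZFX-SH3 alone 7 were called lower in limma, beside 6.9% of all genes, among them myeloperoxidase, MPO, at -1.02 and the defensin DEFA4 at -1.66. BPI, a protein that kills bacteria, was the gene above the controls there, at 0.28, and did not pass. The elastase ELANE had 2378 on ZFX-SH3 and 6066 on ZFX-SH1, against 6745 on SCR and 6687 on LEN-GFP. The summed intensity of the 11 genes, of which LYZ is also a monocyte marker, was 58304 on ZFX-SH3 and 71585 on ZFX-SH1, against 76491 on SCR and 75260 on LEN-GFP. This level moved with MMP8 on ZFX-SH3 but not between the controls, where the list differed by a median of 0.03, and its part in the result was not tested.

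Of 16 macrophage markers, 6 were tested, with 5 higher and 1 lower (median 0.07). The summed intensity of all 16 was 14246 on ZFX-SH3 and 8759 on ZFX-SH1, against 5794 on SCR and 5777 on LEN-GFP. MRC1, CD163 and MSR1 were under the brightness limit. MSR1, a scavenger receptor, had 152.0 on ZFX-SH3 and 55.8 on ZFX-SH1, against 61.9 on SCR and 57.4 on LEN-GFP. It was at 1.35 on ZFX-SH3, where the other markers under the limit lay between -0.05 (C1QC) and 0.22 (CD163). CHI3L1 made up most of the sum, with 9992 on ZFX-SH3 and 6923 on ZFX-SH1, against 3878 on SCR and 4054 on LEN-GFP. SPP1 had 2799 on ZFX-SH3 and 504 on ZFX-SH1, against 560 on SCR and 430 on LEN-GFP. The summed level was highest on ZFX-SH3 and next on ZFX-SH1, as CHI3L1 and MMP25 were. Its part in the value of MMP25 was not tested. TIMP2 was also highest on ZFX-SH3, and on ZFX-SH1 it lay between the controls while the sum was above both. The part of the summed level in the value of TIMP2 was not tested either. Of the 16 tested monocyte and NOMO-1 identity markers, 7 were higher and 9 lower (median -0.02). On ZFX-SH3 they ranged from -0.91 (KIT) to 0.56 (FCN1), and on ZFX-SH1 from -0.27 (CEBPA) to 0.96 (CSF1R).

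**Figure D5:**
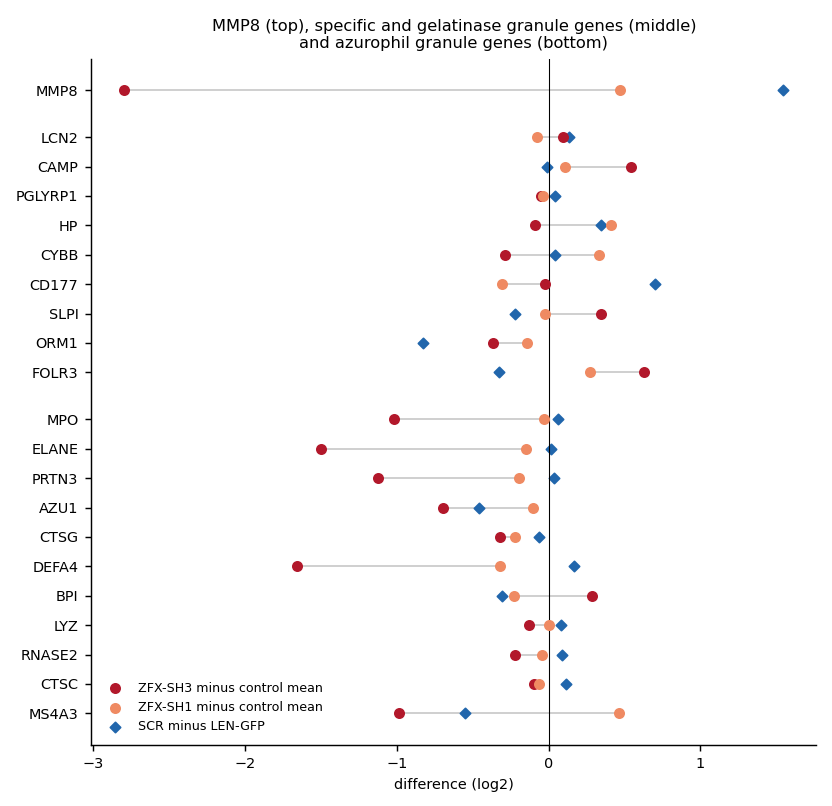
Log2 difference of ZFX-SH3 and ZFX-SH1 from the mean of both controls (circles), and SCR minus LEN-GFP (diamonds), for MMP8, 9 tested specific and gelatinase granule genes and 11 azurophil granule genes. On ZFX-SH3 MMP8 is at -2.80, MPO at -1.02 and DEFA4 at -1.66, while CAMP is at 0.55.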

How the data were processed

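RNA of 4 NOMO-1 cultures was measured on 4 arrays, from 200 ng of total RNA labelled with the Ambion WT kit, per the labels' protocols. The authors deposited a linear intensity for each of 33297 probe sets and array. Affymetrix Expression Console 1.1 and RMA are named in the submitters' processing notes, while no source used here describes the step to linear values. All 4 value columns were used.

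Intensities were turned to log2. Probe sets were named through the platform annotation: 19460 had 1 gene symbol, 1754 several and 12083 none. A gene was represented by its brightest probe set in mean log2 (18417 genes), and the 30% of genes with the lowest mean (5525) were left out, which left 12892. Quantile steps such as those of RMA hide changes in total RNA, and probe set summaries compress differences of dim genes. Intensities of different probe sets are not compared as expression levels.

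The group comparison used limma 3.58.1, run under R 4.3.3 (lmFit and eBayes with an intensity trend; 2 residual degrees of freedom and a prior worth 2.95), two-sided, with Benjamini-Hochberg adjustment over all genes tested and a threshold of 0.05. Fits without 1 array have 1 residual degree of freedom. The steps were run on simulated data with large known shifts, which does not show how smaller differences would be called. The 10 genes were always named. From each of the 6 pathway lists up to 4 genes with the largest difference among non-overlapping groups were named, and 5 genes closest in pattern to the member of widest range. Genes named beyond this (RECK, genes beside the MMP8 cluster, other single genes of the lists, single markers) were chosen after their values were seen. The members and the 15 other lists (6 pathways, 9 of cell type markers) were chosen with earlier results of these data known.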

Additional observations from a re-analysis of the deposited data

Results flagged for a closer look

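The hairpins differed on 2 of the 8 genes tested when ZFX-SH3 was set against ZFX-SH1 in limma, with 1 array for each hairpin and the control pair giving the spread, against 8.49% of all genes. This comparison was added after the values were seen. MMP8 differed by -3.27, with 308.1 on ZFX-SH3 and 2966 on ZFX-SH1, and TIMP1 by 0.49, with 8841 on ZFX-SH3 and 6293 on ZFX-SH1. The controls differed by 1.55 on MMP8 and by -0.05 on TIMP1. The call of MMP8 rests on a moderated SE of 0.54, and its own controls alone give an SE of 1.55.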

How the results depend on the processing

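With 9 other settings (no brightness limit, the lowest 50% of genes left out, the mean of all probe sets, the second brightest probe set, ordinary statistics, no intensity trend, log2 of the intensity plus 32, quantile normalization and median centring) limma called 0 genes, with 575 to 1045 at an unadjusted p under 0.05. Each of the 10 genes kept the sign of its difference, but only some settings could change it. The other brightness limits, ordinary statistics and the fit with no trend leave every difference as it was. The probe set settings can move only TIMP3 among the 10. Leaving out 1 array gave 0 to 1698 called genes: 0 without either control, 1698 without ZFX-SH1 and 54 without ZFX-SH3. The difference of MMP8 then ranged from -2.80 to 0.47, that of MMP17 from -0.21 to 0.16 (0.05 without SCR), that of MMP19 from -0.021 to 0.29 and that of TIMP1 from -0.44 to 0.051, so these 4 changed sign, while the other 6 genes kept theirs. MMP8, TIMP3, MMP25 and TIMP2 passed only without ZFX-SH1, and the cause was not tested. ZFX-SH1 minus LEN-GFP was 1.24 for MMP8, against the sign of the group difference. No paired analysis was possible because the labels give no replicate numbers that tie a knock-down array to a control array. The number of arrays limits the precision, and how far dim genes such as MMP9 and MMP2 stand above background is not known.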
